A study of Mus musculus with 6 samples.

Results

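Splicing factor genes were followed through the activation of mouse naive CD4+ T cells, as 79 genes of 7 families. They were chosen by name, as every measured gene whose symbol starts with Snrp or Hnrnp, or with Srsf, Sf3a, Sf3b, U2af, Lsm or Prpf and a digit, and by a mean of at least 1 FPKM over the libraries. FPKM divides a gene's sequenced fragments by its transcript length and by the depth of the library, so it gives a relative level per length. Of 82 genes with such a name, 79 passed, out of 10347 genes that passed in the whole table of 18446. The 3 genes under the limit were Snrpn at a mean of 0.0967 FPKM, Hnrnpa1l2-ps2 at 0.367 and Srsf12 at 0.543. Hnrnpa1l2-ps2 was listed at 0.40, 0.17 and 0.22 FPKM in WT at 0, 6 and 48 h, and at 0.14, 0.35 and 0.92 FPKM in the libraries labelled Zak-deficient. The lowest gene above the limit, Lsm11, had a mean of 5.34 FPKM, so no gene lay near it.

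Splicing removes introns from pre-mRNA in the spliceosome, a machine built from small nuclear ribonucleoproteins (snRNPs), each a small nuclear RNA wrapped by a ring of Sm or LSm proteins and joined by proteins of its own. SR proteins and hnRNPs bind the pre-mRNA and steer which exons are kept. T cells are a classic setting for this control: activated T cells switch the exons of Ptprc, which encodes the surface phosphatase CD45, and the protein encoded by Hnrnpll is known to take part in that switch.

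Naive T cells carrying CD4, with low CD44 and high CD62L, were sorted from spleen and lymph nodes of C57BL/6 mice aged 6 to 8 weeks. They were wild type (WT) or labelled Zak-/-, and were cultured with antibodies to CD3 and CD28 for 0, 6 or 48 h. Zak, listed as Map3k20, encodes a MAP kinase kinase kinase; the growth protocol calls the deficient mice T cell-conditional, names no Cre driver, and so differs from the Zak-/- of the genotype label. Each of the 6 groups, WT and labelled Zak-deficient at 3 times, was 1 library, with no word on pooling of mice. No group had a replicate, and every difference below is between 2 libraries, with no test; a fit of label and time without their interaction, which 6 libraries allow, was not run.

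The targeted gene was checked first. Map3k20 stood at 0.17, 0.19 and 1.35 FPKM in WT at 0, 6 and 48 h, and at 0.10, 0.10 and 1.61 FPKM in the libraries labelled Zak-deficient. It was thus near 0 in both at the first 2 times and not lower under the deficient label at 48 h. The label was therefore not borne out at 48 h, and the second set is called by its label throughout; which part of the gene was deleted is not given in the sources used here. Markers fitted T cells in all 6 libraries: 6 T cell genes summed to 1585 to 1771 FPKM and Cd4 had 218 to 357, against sums of 3.33 to 7.66 for 6 B cell genes, 3.26 to 4.85 for 6 myeloid genes, 1.13 to 3.44 for 4 dendritic cell genes, 1.48 to 3.51 for 4 NK cell genes and 8.88 to 12.8 for 2 cytotoxic T cell genes. The remaining sums were 0.16 to 1.84 for 3 red cell genes, 39.0 to 94.9 for 5 stroma genes, nearly all of it Pecam1, and 1868 FPKM at 0 h against 395 at 48 h, the extremes of 4 naive T cell genes. The naive and stroma sums moved with time, as the results below do, and their part in them was not tested. In bulk RNA, fewer cells of a type and less RNA per cell cannot be told apart, and FPKM cannot show a change in the total RNA of a cell.

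Most splicing factor genes stood higher after stimulation, and the core snRNP proteins stood out by size. Together the 79 genes held 1.46% of all FPKM in WT and 1.48% under the deficient label at 0 h, 1.87% in both at 6 h, and 2.09% and 2.01% at 48 h. From 0 to 6 to 48 h, 46 genes were higher at each step under both labels and 8 were lower at each step under both. These counts used the values as deposited and were not made over all genes. The second step depends on scaling. Under the deficient label, the 79 genes' median log2 difference from 6 to 48 h was 0.15 as deposited and 0.0028 after rescaling by median ratios. At 6 h, 11 genes were at least 2-fold higher than at 0 h in WT, where 8.93% of all genes tested were, and 9 were under the deficient label, where 9.08% were; 2-fold means a difference of at least 1 in log2(FPKM + 1). The 11 are 13.9% and the 9 are 11.4% of the 79. No gene was 2-fold lower at 6 h under either label, against 1.39% and 1.52% of all genes and 0.512% under both.

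At 6 h 8 genes passed under both labels, a joint call that 7.64% of all genes reached: Snrpa, Snrpa1, Snrpd1, Snrpd2, Hnrnpab, Lsm7, Prpf19 and Prpf31. Prpf31 fell short in WT when libraries were rescaled to a common sum, by median ratios or by the upper quartile. Snrpa1 fell short under the deficient label with a common sum and with the upper quartile. By 48 h, 24 genes were 2-fold higher in WT and 24 under the deficient label, 30.4% of the 79 in each, where 17.8% and 18.4% of all genes were. At that time 2 genes were 2-fold lower in WT and 3 under the deficient label, where 12.3% and 12% of all genes were. At 48 h, 22 of the 79 genes were 2-fold higher under both labels, where 16.4% of all genes were. These 22 made up 91.7% of the 24 called under each label. Over all genes, 1699 were called under both, out of 1840 in WT and 1909 under the deficient label. The 2 genes lower under both were Srsf5 and Prpf39, where 10.2% of all genes were. The median difference at 48 h was 0.75 on the log2 scale in WT and 0.65 under the deficient label, with medians over all genes of 0.00 and 0.06. At 6 h these medians were 0.53 and 0.45, with -0.06 and -0.08 over all genes.

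**Figure D1:**
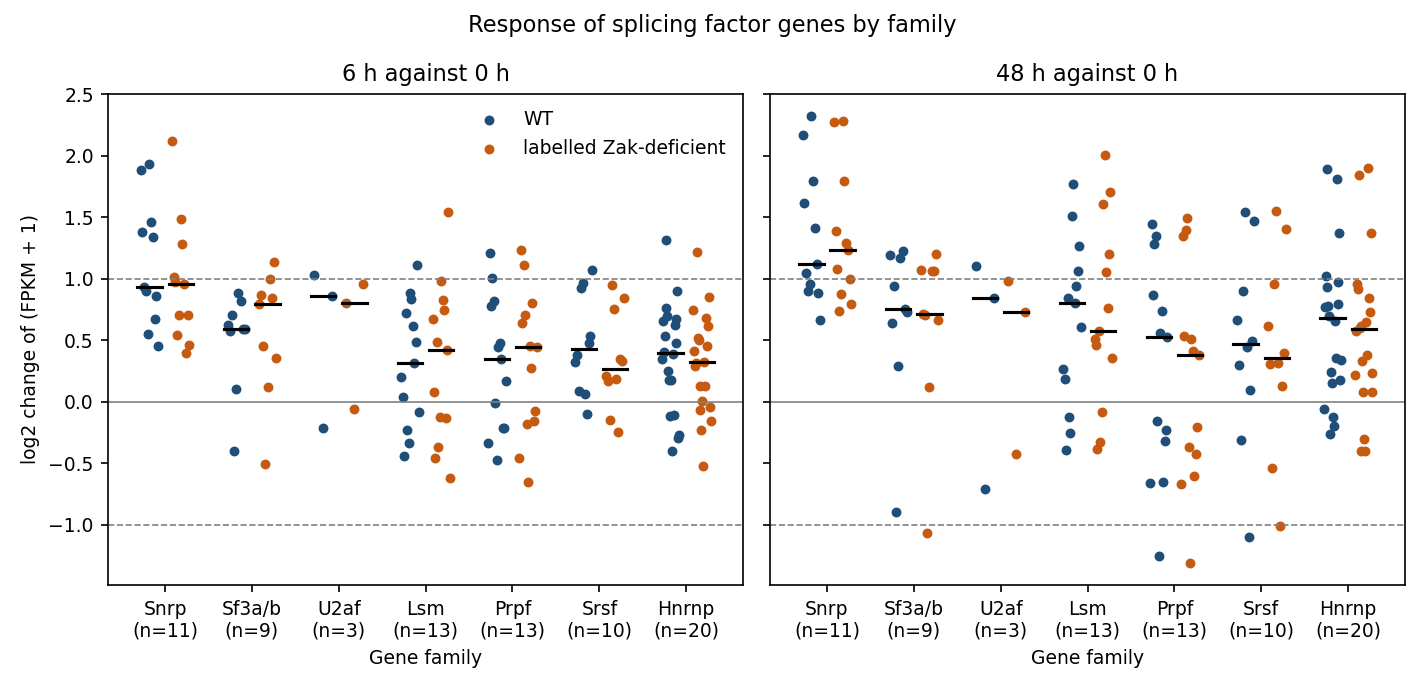
Each point is 1 gene's difference in log2(FPKM + 1) between a stimulated library and the 0 h library of the same label, grouped by family, with WT in blue and the libraries labelled Zak-deficient in orange; black bars are medians over the n genes of a family, dashed lines mark 2-fold, and there are no replicates. All 11 Snrp points lie above 0 in both panels. The Prpf and Srsf families reach below -1 at 48 h under both labels, and the Sf3a/b family does under the deficient label, with Sf3b1 at -1.07.

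Promoter sequence is shown for 5 genes of opposite responses, so that the letters near their starts can be compared. RefSeq windows of 250 bases before the transcription start (GRCm38.p6) were found for 67 of the 79 genes. Snrpa, whose product binds U1 RNA, and Prpf19, a ubiquitin ligase of the spliceosome, were 2-fold higher at both times under both labels. Sf3a1 stands for the SF3 genes that were higher, and Sf3b1 and Prpf39 are genes that were lower. The windows are, in order, chr7:27196272-27196521 (minus strand), chr19:10894981-10895230 (plus), chr11:4160294-4160353 (plus), chr1:55027479-55027728 (minus) and chr12:65036084-65036333 (plus); the Sf3a1 window was shortened to 60 bases where an exon of a neighbouring gene begins. Capitals mark CACGTG, the E-box bound by Myc and related factors, and CCGGAAG or its reverse complement, a core bound by ETS factors.
Snrpa: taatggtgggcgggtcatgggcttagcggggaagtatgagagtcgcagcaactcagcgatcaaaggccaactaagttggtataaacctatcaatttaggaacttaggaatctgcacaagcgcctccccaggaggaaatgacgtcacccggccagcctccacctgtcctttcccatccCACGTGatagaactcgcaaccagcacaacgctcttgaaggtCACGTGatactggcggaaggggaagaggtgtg
Prpf19: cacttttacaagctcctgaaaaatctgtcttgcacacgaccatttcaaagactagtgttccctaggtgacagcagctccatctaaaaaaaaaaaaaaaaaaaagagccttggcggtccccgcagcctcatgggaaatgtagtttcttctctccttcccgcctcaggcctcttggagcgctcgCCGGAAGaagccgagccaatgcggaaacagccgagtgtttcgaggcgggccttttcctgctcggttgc
Sf3a1: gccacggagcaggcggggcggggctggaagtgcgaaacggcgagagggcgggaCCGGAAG
Sf3b1: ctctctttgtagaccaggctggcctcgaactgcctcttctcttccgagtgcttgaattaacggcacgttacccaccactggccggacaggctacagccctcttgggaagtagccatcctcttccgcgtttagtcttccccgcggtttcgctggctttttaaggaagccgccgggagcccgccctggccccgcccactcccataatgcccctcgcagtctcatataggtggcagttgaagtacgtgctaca
Prpf39: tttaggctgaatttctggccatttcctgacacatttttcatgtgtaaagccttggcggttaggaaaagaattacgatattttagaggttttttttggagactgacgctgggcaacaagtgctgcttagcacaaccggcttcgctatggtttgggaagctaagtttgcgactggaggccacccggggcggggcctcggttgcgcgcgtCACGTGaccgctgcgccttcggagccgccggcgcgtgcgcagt
Snrpa held 2 CACGTG matches, starting 73 and 32 bases before the start, and Prpf39, which was lower at both times, held 1 at 43 bases. CACGTG occurred in 7 of the 67 genes (10.4%), in 10.2% of the expressed genes with a window and in 6.86% of all genes in the promoter table. CCGGAAG on either strand occurred in 19 of 67 genes (28.4%), in 17.9% of expressed genes and in 7.83% of all. Of the 7 SF3 genes with a window, 6 held CCGGAAG (85.7%): Sf3a1, Sf3a2, Sf3a3, Sf3b2, Sf3b3 and Sf3b6. Sf3b1, the SF3 gene that was lower after stimulation, held neither motif. Of the 18 genes with a window that were 2-fold higher at 48 h under both labels, 3 (16.7%) held CCGGAAG and 1 (5.56%) held CACGTG, and of the other 49 genes 16 (32.7%) and 6 (12.2%) did. A match is a run of letters and not a measured binding site.

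The Snrp genes encode the Sm ring and the proteins particular to U1 and U2 snRNPs. All 11 were higher than at 0 h at both times and under both labels, also when the libraries were rescaled to a common sum, by median ratios or by the upper quartile. Of the 11, 5 were 2-fold higher at 6 h in WT and 4 under the deficient label, and 7 were at 48 h under each label; with the other scalings the count under the deficient label at 6 h was 3 to 6, and those at 48 h were 6 to 8. The family's median difference was 0.93 and 0.96 on the log2 scale at 6 h, and 1.12 and 1.23 at 48 h, for WT and the deficient label.

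Snrpa (chr7:27187006-27196271) encodes the protein that binds a stem loop of U1 RNA. It stood at 17.5, 67.1 and 82.1 FPKM in WT at 0, 6 and 48 h, and at 15.7, 71.5 and 79.6 FPKM under the deficient label. The 2 resting libraries were far below the other 4, by 3.69-fold and 4.35-fold at 6 h. Snrpd1 encodes SmD1, a part of the Sm ring. Its levels were 26.0, 102.6 and 134.6 FPKM in WT and 25.2, 72.5 and 126.3 under the deficient label. Its differences at 48 h, 5.01-fold and 4.86-fold, were the highest of the 79 genes in both. Snrpd2, its partner SmD2, went from 81.7 to 227.1 and 286.6 FPKM in WT and from 83.7 to 205.5 and 292.3 under the deficient label. Snrpd3 went from 76.3 to 194.3 and 205.1 FPKM, and from 78.4 to 153.2 and 192.9. At 6 h Snrpd3 was 2-fold higher in WT (2.53-fold) but not under the deficient label (1.94-fold).

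Snrpa1, whose product is particular to U2 snRNP, stood at 27.6, 73.4 and 86.7 FPKM in WT and at 31.1, 63.7 and 83.3 under the deficient label, a difference at 48 h of 3.07-fold and 2.62-fold. Its U2 partner Snrpb2 differed less, from 32.8 to 62.0 and 62.1 FPKM in WT and from 33.1 to 48.5 and 55.7 under the deficient label. The U1 protein gene Snrpc was at 46.3, 68.4 and 91.0 FPKM and at 44.4, 73.1 and 82.5, under 2-fold at each time. Among the other ring genes, Snrpe was at 143.3, 228.8 and 312.3 FPKM in WT and at 127.3, 167.9 and 300.7 under the deficient label. It was 2.17-fold and 2.35-fold higher at 48 h, and Snrpb was 2.07-fold and 2.12-fold higher. Snrpf and Snrpg did not reach 2-fold at either time, although Snrpf lay just under it at 48 h with the deficient label. Snrpf was at 54.1, 99.2 and 100.6 FPKM in WT and at 57.1, 93.7 and 115.0 under that label. Snrpg, the most abundant, was at 255.0, 348.9 and 404.3 FPKM and at 237.6, 327.1 and 414.0, which is 1.58-fold and 1.74-fold higher at 48 h. Snrpn, the imprinted copy of Snrpb that is used mainly in brain, stayed between 0 and 0.24 FPKM in the 6 libraries, where Snrpb had 120.1 to 255.8.

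The scarcest ring gene at rest had the highest fold, and the 7 Sm ring genes lay closer together after stimulation. In resting cells the most abundant, Snrpg, was 9.79 times Snrpd1 in WT and 9.43 times under the deficient label. At 6 h the highest level was 3.52 and 4.51 times the lowest, and at 48 h 4.02 and 3.60 times. The ring holds 1 copy of each protein, but levels of mRNA say nothing of the proteins' amounts.

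The Sf3 genes encode SF3A and SF3B, the part of U2 snRNP that holds the branch point of the intron. Of the 9, 8 were higher at both times under both labels; scaling to a common sum turned 1 of these values, Sf3b2 at 48 h under the deficient label, from 0.12 to -0.02 on the log2 scale. At 6 h none was 2-fold higher in WT and 1, Sf3b5, was under the deficient label. At 48 h 3 and 4 were: Sf3a1, Sf3b3 and Sf3b4 in both, and Sf3b5 under the deficient label. The WT count was 3 with each scaling, while the count under the deficient label was 1 with a common sum or median ratios, leaving Sf3b5, and 2 with the upper quartile, leaving Sf3b5 and Sf3a1.

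Sf3b1 (chr1:54985169-55027501), the scaffold that clamps the branch point and the SF3 gene most often mutated in blood cancers, went the other way. It stood at 297.2, 224.5 and 159.4 FPKM in WT and at 318.1, 223.5 and 151.1 under the deficient label. It was the most abundant SF3B gene in every library, and lower at each later time. At 48 h it was 1.86-fold lower in WT, short of 2-fold except with a common sum, and 2.10-fold lower under the deficient label. Sf3b3, which lines the same scaffold, went from 51.2 to 95.6 and 116.1 FPKM and from 51.8 to 104.2 and 109.0. Sf3b4 went from 36.4 to 65.2 and 86.6 FPKM and from 40.0 to 72.6 and 84.8, but 49.3% of its transcript's 50-base words also occur in another annotated gene, so its level is uncertain. Sf3b3 thus stood at 0.172 and 0.163 of the level of Sf3b1 in resting cells, at 0.426 and 0.466 at 6 h, and at 0.728 and 0.722 at 48 h.

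The other SF3 genes were also above their resting level at 48 h under both labels, as deposited. Sf3b5 was at 41.2, 62.7 and 70.0 FPKM in WT and at 31.4, 70.1 and 73.6 under the deficient label, with the 2 labels farthest apart at rest. Sf3b2 had 107.1, 115.2 and 131.0 FPKM and 118.8, 128.9 and 128.9. Sf3a1 had 19.1, 30.0 and 44.9 FPKM and 19.9, 35.2 and 42.9. Sf3a2, Sf3a3 and Sf3b6 were 1.56-fold to 1.92-fold higher at 48 h in both. The most abundant SF3B gene was 8.15 and 10.1 times the least abundant in resting cells, 3.98 and 4.56 times at 6 h, and 2.57 and 2.47 times at 48 h.

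**Figure D2:**
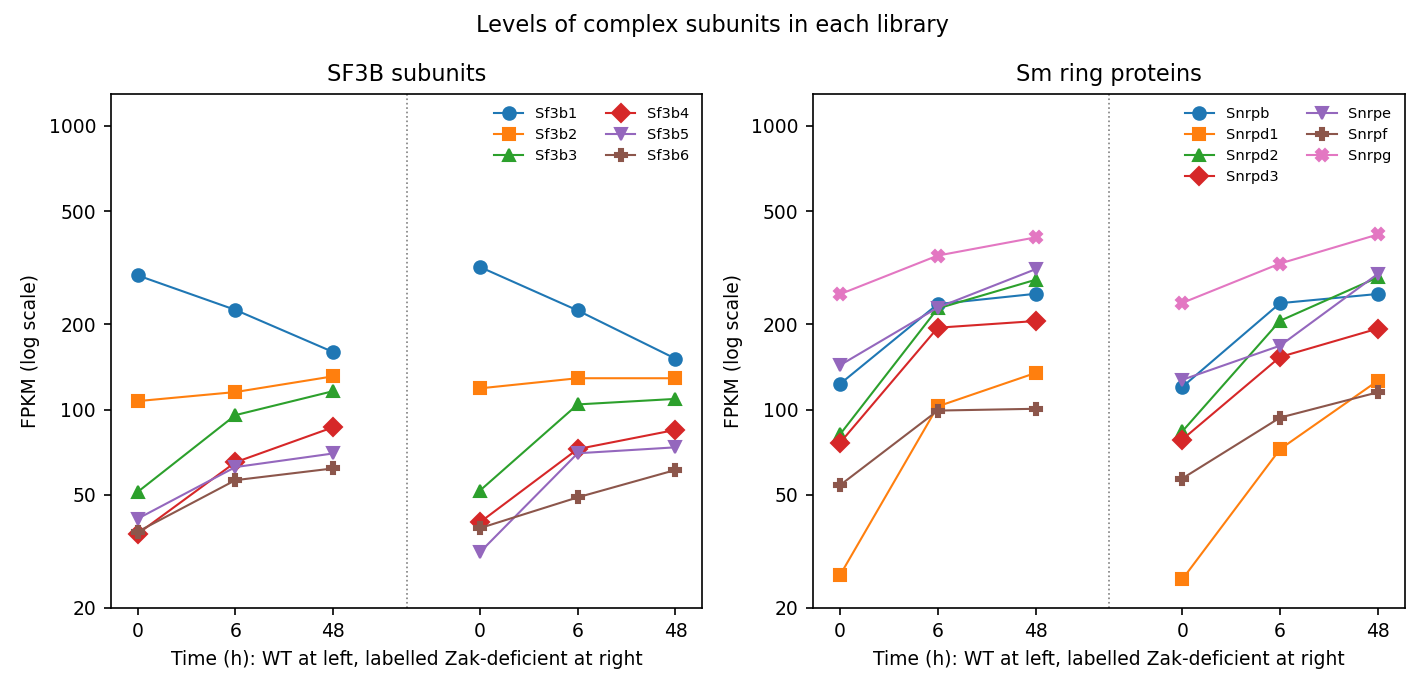
Levels in FPKM on a log axis of the 6 SF3B subunit genes (left panel) and the 7 Sm ring genes (right panel) at 0, 6 and 48 h, each point being 1 library, with WT at the left and the libraries labelled Zak-deficient at the right of each panel. Sf3b1 is at 297.2 FPKM at 0 h and 159.4 at 48 h in WT while the other subunits are higher at 48 h than at 0 h, and Snrpd1 is at 26.0 and 134.6 FPKM.

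U2AF reads the end of the intron: U2af2 binds the pyrimidine tract and U2af1 the AG at the splice site. U2af2 was highest at 6 h under both labels, at 122.3, 222.4 and 220.3 FPKM in WT and 128.6, 250.3 and 214.4 under the deficient label; its WT levels at 6 and 48 h changed order with median-ratio scaling. U2af1 went from 71.0 to 146.0 and 153.5 FPKM and from 74.5 to 130.8 and 148.3, 2-fold higher in WT at both times (2.04-fold and 2.14-fold) and short of it under the deficient label (1.74-fold and 1.98-fold). With a common sum U2af1 was 2-fold higher at neither time in WT. U2af1l4, a paralogue that can replace U2af1 in the dimer, was lower over time, at 42.2, 36.2 and 25.4 FPKM in WT and 40.5, 38.8 and 29.8 under the deficient label; its 6 h difference under that label, -0.06 on the log2 scale, became 0.01 with median-ratio scaling. The ratio of U2af1 to U2af1l4 was 1.68 and 1.84 at 0 h, 4.03 and 3.37 at 6 h, and 6.03 and 4.97 at 48 h. Both levels are uncertain, since 59.4% of the 50-base words of U2af1 and 97.2% of those of U2af1l4 also occur in other annotated genes. The share was 34.5% or less for Hnrnpk, Hnrnpm, Hnrnpa1, Hnrnpa3, U2af2, Snrpf, Snrpe, Lsm5 and Lsm7, whose levels are also less certain.

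LSm proteins form rings like those of the Sm proteins: Lsm2 to Lsm8 hold U6 RNA in the nucleus, and with Lsm1 in place of Lsm8 the ring works in cytoplasmic mRNA decay. Of 13 genes 1, Lsm7, was 2-fold higher at 6 h under both labels. At 48 h 4 were in WT and 5 under the deficient label: Lsm2, Lsm3, Lsm6 and Lsm7 in both, and Lsm4 under the deficient label. All 6 genes shared by both rings, Lsm2 to Lsm7, were higher at 48 h under both labels, with a median of 2.24-fold and 2.65-fold.

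Lsm3 went from 26.3 to 47.7 and 92.2 FPKM in WT and from 23.0 to 41.5 and 95.5 under the deficient label, with the larger step after 6 h. Lsm2 went from 17.3 to 32.9 and 51.1 FPKM and from 16.5 to 33.6 and 52.5. Lsm7 had most of its difference by 6 h, at 33.7, 73.9 and 82.5 FPKM and 24.1, 72.3 and 80.8. Lsm4 was at 63.5, 97.8 and 111.5 FPKM and at 61.9, 104.6 and 129.7. Lsm5, which met 2-fold at neither time, was at 37.7, 47.1 and 73.5 FPKM and at 34.7, 31.7 and 59.7. Lsm6, the scarcest of the shared ring genes, was at 9.40, 13.6 and 20.7 FPKM and at 8.62, 11.9 and 21.1. The genes that set the ring's place differed less than these at 48 h. Lsm8, of the nuclear ring, was at 48.0, 45.1 and 73.7 FPKM and at 57.7, 37.3 and 74.2, lowest at 6 h in both. Lsm1, of the cytoplasmic ring, was at 11.7, 13.5 and 14.2 FPKM and at 8.54, 14.2 and 12.6.

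Of the 5 LSm genes outside these rings, 3 were below their resting level at both times under both labels. Lsm11, of the U7 snRNP that cuts histone pre-mRNA, was at 6.34, 4.40 and 4.6 FPKM in WT and 6.88, 4.75 and 5.04 under the deficient label, 1.30-fold to 1.37-fold lower after stimulation. Its U7 partner Lsm10 was at 16.4, 16.9 and 18.8 FPKM and at 15.0, 16.0 and 21.1, which is 1.14-fold and 1.38-fold higher at 48 h, and its 6 h difference in WT, 0.04, was -0.05 with a common sum and -0.02 with the upper quartile. Lsm14a, a protein of P-bodies, was at 78.8, 66.9 and 72.0 FPKM and at 89.4, 68.9 and 71.0. Lsm14b was the third such gene, while Lsm12 was 1.80-fold and 1.49-fold higher at 48 h.

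The Prpf genes split by role. The 3 genes of the U4/U6 particle, Prpf3, Prpf4 and Prpf31, and Prpf19, whose complex is needed for catalysis, were higher at both times under both labels. Prpf31 went from 12.7 to 26.4 and 32.2 FPKM in WT and from 10.99 to 24.99 and 30.5 under the deficient label. Prpf19 went from 12.1 to 29.2 and 34.5 FPKM and from 12.1 to 29.8 and 32.2. Both had most of their difference by 6 h, when Prpf31 was 2.01-fold and Prpf19 2.31-fold higher in WT. With each of the other scalings Prpf31 was short of 2-fold at 6 h in WT. Prpf3 was at 18.8, 33.0 and 35.2 FPKM and at 20.1, 31.95 and 29.5. Prpf38a, a factor of the B complex, went from 16.0 to 29.0 and 42.4 FPKM and from 14.3 to 23.9 and 42.1, while its relative Prpf38b was 1.12-fold and 1.29-fold lower at 48 h.

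Prpf39 (chr12:65036334-65063386), which works with U1 snRNP, had the largest difference downward of the 79 genes at 48 h under both labels. It stood at 71.0, 51.0 and 29.2 FPKM in WT and at 75.8, 47.9 and 29.9 under the deficient label, which is 2.39-fold and 2.48-fold lower at 48 h. The 2 libraries of each time lay closer together than libraries of different times. Prpf18, a factor of the second catalytic step, was at 32.3, 25.4 and 20.1 FPKM and at 34.2, 24.7 and 21.2. Prpf40b, linked to U1, was highest at 6 h, at 6.63, 8.72 and 3.85 FPKM and 6.28, 11.7 and 3.78.

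The large U5 protein gene Prpf8 was 1.44-fold and 1.30-fold higher at 48 h. Prpf6 and the kinase gene Prpf4b were 1.15-fold to 1.34-fold lower. In all, 6 of the 13 Prpf genes were below their resting level at 48 h under both labels, also with the 3 other scalings.

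SR proteins, encoded by Srsf genes, bind exonic enhancers. Of the 10, 2, Srsf3 and Srsf9, were 2-fold higher at 48 h under both labels and 1, Srsf5, was 2-fold lower. Srsf3, a short SR protein that also serves mRNA export, went from 68.8 to 135.1 and 202.5 FPKM in WT and from 65.3 to 110.8 and 193.4 under the deficient label. Srsf9 went from 17.0 to 36.9 and 48.8 FPKM and from 18.4 to 33.8 and 50.4.

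Srsf5 (chr12:80945495-80950507) was the most abundant SR gene in resting cells. It stood at 474.2, 443.0 and 220.7 FPKM in WT and at 439.3, 371.2 and 217.8 under the deficient label, so most of the difference came after 6 h. The ratio of Srsf3 to Srsf5 was 0.145 and 0.149 at 0 h, 0.305 and 0.299 at 6 h, and 0.918 and 0.888 at 48 h. Srsf2, by contrast, had reached its level by 6 h, at 148.9, 284.2 and 278.6 FPKM and 144.2, 279.4 and 280.7. Srsf11 was at 120.3, 127.7 and 97.1 FPKM and at 133.7, 120.6 and 91.7, which is 1.24-fold and 1.45-fold lower at 48 h. Srsf1, Srsf4, Srsf7 and Srsf10 were 1.23-fold to 1.58-fold higher at 48 h. At 6 h the WT differences of Srsf4 and Srsf11, 0.06 and 0.08 on the log2 scale, turned to -0.03 and -0.01 with a common sum. Srsf6 was 1.07-fold and 1.09-fold higher at 48 h, with the sign turned in both by scaling to a common sum. Srsf12, under the limit on the mean, was at 0.98, 0.44 and 0.19 FPKM and at 0.97, 0.55 and 0.13. Many SR genes carry exons that lead their own mRNA to decay when included; a level per gene sums all isoforms and cannot show these.

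**Figure D3:**
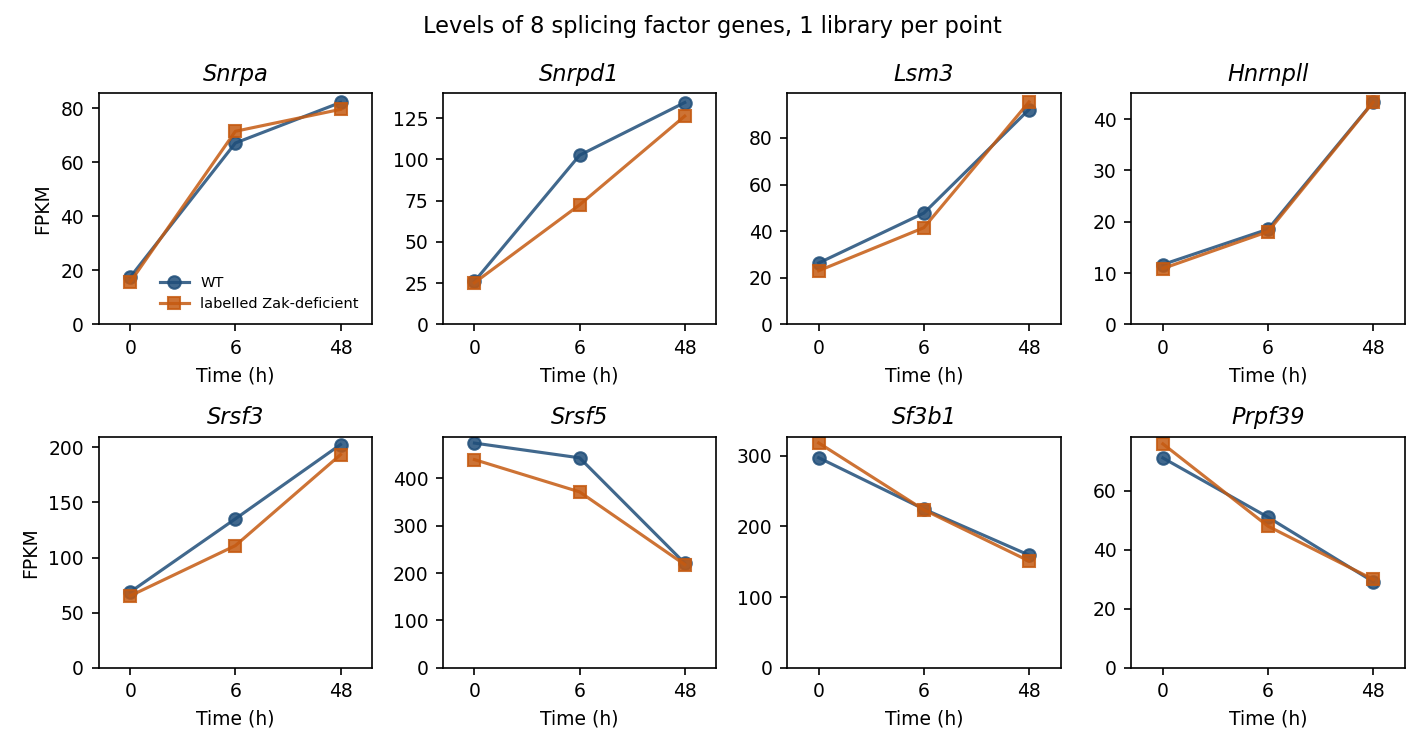
Levels in FPKM of 8 splicing factor genes at 0, 6 and 48 h, with WT as blue circles and the libraries labelled Zak-deficient as orange squares; each point is 1 library and every axis starts at 0. Snrpa, Snrpd1, Lsm3, Hnrnpll and Srsf3 are higher at each later time, Srsf5, Sf3b1 and Prpf39 are lower, and the 2 labels lie close together at each time, with the largest ratio of the 8 genes for Snrpd1 at 6 h (102.6 against 72.5 FPKM).

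The hnRNP genes include the most abundant members. Hnrnpa1, which represses exons and travels with mRNA, had the highest mean of the 79, 687.2 FPKM. It was at 474.4, 748.4 and 808.6 FPKM in WT and 547.0, 729.2 and 815.6 under the deficient label. Hnrnpf had a mean of 474.8 FPKM and Hnrnpa2b1 one of 441.9. Hnrnpf, with 49.0% of its 50-base words in other genes, was at 438.9, 496.1 and 520.5 FPKM and at 415.4, 454.6 and 523.4, which is 1.19-fold and 1.26-fold higher at 48 h.

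Of the 20 genes, 15 were above their resting level at 6 h under each label, a count that ran from 14 to 17 under the deficient label with the other scalings. At 48 h 16 in WT and 17 under the deficient label were, the latter being 15 with a common sum or median ratios. Hnrnpab alone was 2-fold higher at 6 h under both labels. At 48 h 4 were in WT and 3 under the deficient label: Hnrnpab, Hnrnpll and Hnrnpu in both, and Hnrnpa2b1 in WT. Hnrnpab went from 88.6 to 222.1 and 331.1 FPKM in WT and from 87.2 to 204.3 and 315.5 under the deficient label. Hnrnpu, a large protein bound to chromatin and RNA, went from 142.2 to 266.0 and 370.6 FPKM and from 132.2 to 239.8 and 344.4. Hnrnpa2b1 was at 310.1, 410.4 and 631.9 FPKM and at 311.7, 382.5 and 605.0, on either side of 2-fold at 48 h (2.03-fold and 1.94-fold).

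Hnrnpll (chr17:80029487-80062268), the CD45 exon repressor, was the scarcest of the 20 hnRNP genes at rest under both labels, and most of its difference came after 6 h. It stood at 11.7, 18.5 and 43.4 FPKM in WT and at 10.9, 18.1 and 43.3 under the deficient label. It was 3.504-fold and 3.73-fold higher at 48 h, and was 2-fold higher at 48 h than at 6 h under both labels (2.27-fold and 2.32-fold). Its abundant paralogue Hnrnpl, which binds the same kind of exonic silencer, was at 213.5, 197.5 and 273.9 FPKM and at 211.7, 231.1 and 275.7. The ratio of Hnrnpll to Hnrnpl was 0.0546 and 0.0514 at 0 h, 0.0939 and 0.0782 at 6 h, and 0.158 and 0.157 at 48 h. Ptprc itself, as a gene, was at 363.6, 512.9 and 450.5 FPKM in WT and at 361.8, 548.7 and 433.9 under the deficient label; its exon use was not analysed here.

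The hnRNP genes below their resting level included Hnrnph3, at 39.2, 29.4 and 34.1 FPKM in WT and 40.5, 27.8 and 30.5 under the deficient label. Hnrnpdl was at 157.9, 187.8 and 131.2 FPKM and at 176.1, 168.3 and 133.2, a difference at 48 h of -0.27 and -0.40 on the log2 scale. Hnrnph2 was also below its resting level at 48 h under both labels, and Hnrnpa0 in WT. Hnrnpa0 was at 105.7, 134.9 and 101.4 FPKM in WT and at 98.2, 165.0 and 114.2 under the deficient label. Hnrnpul2 was at 91.4, 75.7 and 115.6 FPKM and at 96.6, 86.6 and 113.7, lowest at 6 h in both. Hnrnpul1 was at 133.5, 108.7 and 151.0 FPKM and at 137.7, 133.4 and 145.7. Hnrnpa3 was at 296.9, 429.6 and 567.4 FPKM and at 266.4, 331.5 and 503.5. At 48 h Hnrnpul1 and Hnrnpa3, with Hnrnpc, Hnrnpd, Hnrnph1, Hnrnpk, Hnrnpm and Hnrnpr, were 1.06-fold to 1.97-fold higher under both labels; for Hnrnph1 and Hnrnpul1 under the deficient label the sign turned with a common sum and with median ratios.

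Between 6 and 48 h few genes differed 2-fold. In WT 1 gene was 2-fold higher at 48 h than at 6 h, Hnrnpll, where 9.32% of all genes were, and 2 were 2-fold lower, Srsf5 and Prpf40b, where 6.14% were. Both lay at the limit, at 2.003-fold and 2.004-fold lower, and neither was called in WT with median-ratio scaling. Under the deficient label 2 were higher, Hnrnpll and Lsm3, where 10.8% of all genes were, and 1 was lower, Prpf40b, where 6.55% were. With 5 FPKM in place of 1 added to each value, no member was 2-fold lower under either label. The median gene differed by 0.16 and 0.15 on the log2 scale, and by -0.03 and 0.02 over all genes.

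None of the 79 genes differed 2-fold between the labels at any time. Over all genes, 0.222% were higher and 0.0483% lower under the deficient label at 0 h, 0.116% and 0.126% at 6 h, and 1.8% and 0.435% at 48 h. The median size of a member's difference between labels was 1.05-fold, 1.09-fold and 1.04-fold at the 3 times in order, beside 1.06-fold, 1.10-fold and 1.06-fold over all genes. Differences of at least 1.2-fold were met by 3, 13 and 1 of the 79 genes (3.8%, 16.5% and 1.27%), and by 9.16%, 20.5% and 11.6% of all genes.

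At 0 h the largest differences were in LSm genes and Sf3b5. Lsm7 was lower under the deficient label (24.1 against 33.7 FPKM), as were Lsm1 (8.54 against 11.7) and Sf3b5 (31.4 against 41.2). Lsm8 was higher, at 57.7 against 48.0 FPKM, as were Hnrnpa1 (547.0 against 474.4) and Lsm14a (89.4 against 78.8). Of these 6 genes, Lsm1, Lsm8 and Sf3b5 lay on the other side at 6 h with each scaling, while the 6 h directions of Hnrnpa1 and Lsm7 changed with scaling. The largest difference at 6 h was that of Lsm5, a ring protein gene, at 31.7 FPKM under the deficient label against 47.1 in WT, 1.47-fold lower. Snrpd1 was at 72.5 against 102.6 FPKM and Snrpe at 167.9 against 228.8. On the higher side were Prpf40b at 11.7 against 8.72 FPKM, Hnrnpul1 at 133.4 against 108.7 and Hnrnpa0 at 165.0 against 134.9. At 48 h, Lsm5 was again lowest, at 59.7 against 73.5 FPKM, followed by Prpf3 at 29.5 against 35.2 and Hnrnpa3 at 503.5 against 567.4. Those higher at 48 h were U2af1l4 (29.8 against 25.4 FPKM), Lsm4 (129.7 against 111.5) and Snrpf (115.0 against 100.6).

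The genes lower under the deficient label at all 3 times numbered 16 as deposited, with Lsm5, Snrpd1, Snrpe, Srsf3 and Srsf5 among them, and 1, Lsm11, was higher at all 3. Over all 10347 genes these counts were 1692 lower and 1146 higher. Median-ratio scaling moved the median of all genes at 48 h between the labels from -0.01 to -0.17, and with it the 79 genes' median from -0.03 to -0.20, so directions at 48 h between labels depend on scaling.

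The difference between labels at 6 h moved with the base composition of the transcripts. Over the 79 genes it correlated with transcript GC content at Pearson's r = 0.67 at 6 h, -0.10 at 0 h and 0.40 at 48 h; over 10211 genes r was 0.43, -0.09 and 0.01. These are correlations across genes of the same 2 libraries, given as descriptions, since genes are not independent replicates. At 6 h, 35 of the 40 genes of lower GC content were lower under the deficient label, with a median of -0.12, while 23 of the 39 of higher GC content were higher, with a median of 0.04. Lsm5 has a GC content of 34.0%, Snrpe 42.0% and Snrpd1 43.1%, against a median of 46.2% in the 79 genes and 49.4% over all genes. Their transcripts are also short, at 757, 669 and 858 bases in that order, against a median of 3036 in the 79 genes. With log2 transcript length, r at 6 h was 0.26 over the 79 genes and 0.27 over 10211 genes. When differences were centred on genes of like GC content and length, a step added after the data were seen, the 6 h difference went from -0.56 to -0.21 for Lsm5, from -0.50 to -0.19 for Snrpd1 and from -0.44 to -0.15 for Snrpe. The standard deviation of the 79 differences at 6 h went from 0.18 to 0.12, and 2 genes in place of 13 differed by 1.2-fold. The centring took out GC content and length together, so the part of each was not tested.

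**Figure D4:**
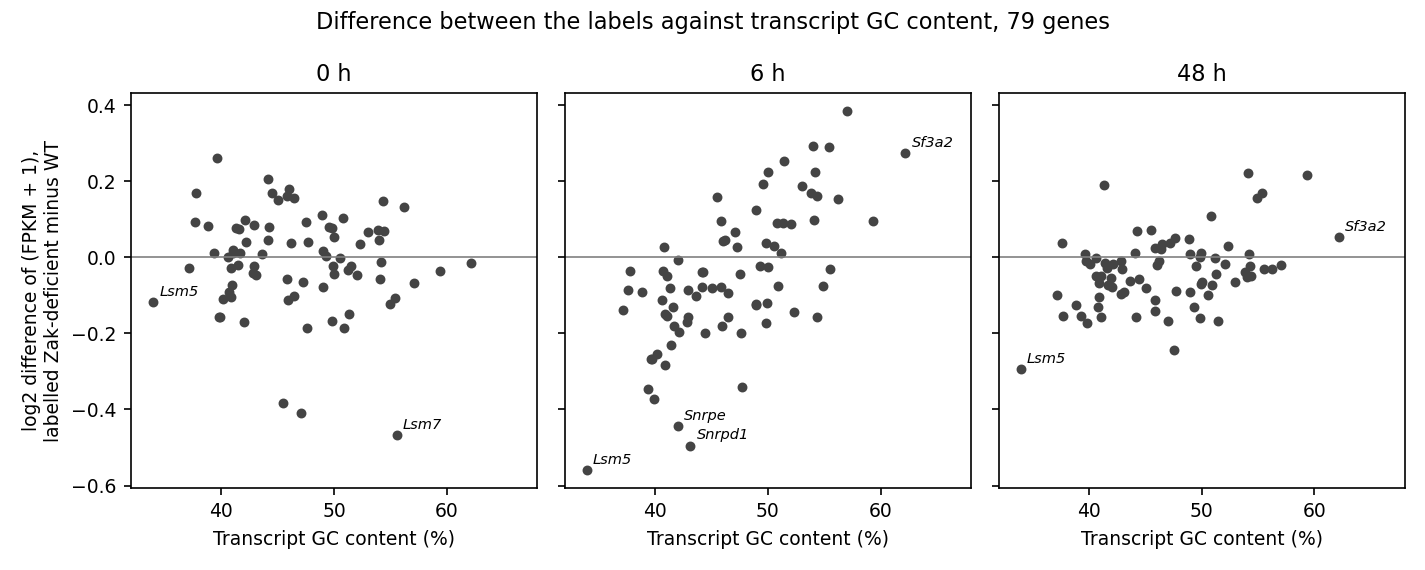
Each point is 1 of the 79 genes, placed by the GC content of its transcript in percent and by its difference in log2(FPKM + 1) between the library labelled Zak-deficient and the WT library at 0, 6 and 48 h. At 6 h 35 of the 40 genes of lower GC content lie below 0 and 23 of the 39 of higher GC content lie above it (r = 0.67). This slope is not seen at 0 h (r = -0.10), and at 48 h r is 0.40.

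Other splicing genes were listed by role outside the 7 families. Of 37 further snRNP protein genes, 3 (8.11%) were 2-fold higher at 6 h in WT and 2 (5.41%) under the deficient label, where 8.93% and 9.08% of all genes were. At 48 h 7 (18.9%) and 6 (16.2%) were, near the 17.8% and 18.4% of all genes, and none was lower. Among them Ppih, a cyclophilin of the tri-snRNP, went from 16.0 to 57.3 FPKM between 0 and 48 h in WT and from 17.1 to 60.0 under the deficient label. Snu13, which binds U4 RNA, went from 40.5 to 122.9 FPKM and from 42.8 to 121.7, and Snrnp25, of the minor spliceosome, from 8.24 to 28.8 and from 8.26 to 29.8. Of 33 genes of the Prp19 complex, step factors and helicases, 1 was 2-fold higher at 6 h under each label; by 48 h this was 3, with 1 gene 2-fold lower. These shares, 3.03% at 6 h and 9.09% at 48 h, lay under those of all genes. Of these, the cyclophilin gene Ppil1 went from 17.0 to 80.8 FPKM and from 16.8 to 77.7, and Syf2, the gene that was lower, from 117.9 to 52.4 and from 127.3 to 53.5.

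The genes that assemble and import snRNPs were also mostly higher. Of 21, 7 (33.3%) and 3 (14.3%) were 2-fold higher at 6 h and 10 (47.6%) and 6 (28.6%) at 48 h, with medians of 0.99 and 0.85 on the log2 scale at 48 h. Over all genes, 8.93% and 9.08% were 2-fold higher at 6 h, and 17.8% and 18.4% at 48 h. Gemin6, a part of the SMN complex that loads Sm rings, went from 4.69 to 28.1 FPKM and from 3.69 to 23.9, Gemin8 from 4.87 to 19.7 and from 5.39 to 27.9, and Gemin4 from 5.64 to 19.1 and from 4.21 to 17.95. Of 23 genes of the exon junction complex and mRNA export, 4 (17.4%) and 3 (13.0%) were 2-fold higher at 6 h, beside the same shares of all genes. At 48 h 10 (43.5%) were higher under each label. At that time 1, Casc3, was 2-fold lower under the deficient label, where 12% of all genes were. Magohb, a core gene of the exon junction complex, went from 1.26 to 20.6 FPKM and from 2.04 to 16.3, and Alyref, an export adaptor, went from 27.2 to 116.2 FPKM and from 25.5 to 117.8.

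The kinases that phosphorylate SR proteins were mostly lower. Of 10 genes for these kinases, their phosphatase and the SR import receptor, none was 2-fold higher at 6 or 48 h and 2 of 10 were 2-fold lower at 48 h under both labels, beside 10.2% of all genes, with medians of -0.69 and -0.85. Clk1 was at 337.8, 219.9 and 102.1 FPKM in WT and 359.1, 182.1 and 95.9 under the deficient label, and Clk4 went from 78.0 to 34.2 and from 85.3 to 34.0. Of 40 other RNA-binding regulators, 1 (2.5%) and 2 (5%) were 2-fold higher at 6 h, 4 (10%) were higher at 48 h under each label and 3 (7.5%) and 6 (15%) were lower, beside 12.3% and 12% of all genes that were lower. The shares of all genes that were higher were 8.93% and 9.08% at 6 h, and 17.8% and 18.4% at 48 h. Cirbp, the cold-inducible RNA-binding protein, went from 108.9 to 19.5 FPKM and from 92.6 to 20.1, and Pspc1, a paraspeckle protein, from 9.46 to 32.6 and from 7.43 to 31.8.

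The time course shared by the 8 genes that were 2-fold higher at 6 h under both labels was compared with 10231 genes outside the families. Over the 6 libraries, the profiles most like their mean were those of Phf6, Ndufa12, Psph, Asns and Rcc1, with Pearson's r from 0.9992 to 0.9996. Phf6 stood at 9.70, 31.9 and 42.9 FPKM in WT and at 9.13, 30.0 and 41.8 under the deficient label. The 6 points share libraries and depth and fall into 3 times, so such values of r describe a common shape only.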

How the data were processed

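Gene levels were FPKM as deposited by the authors, 1 value per gene in each of 6 bulk RNA-seq libraries; per the submitters' processing notes, Bowtie, RSEM and mm10 were used, with versions and settings not given in the sources used here. Sequencing depth and counts are unknown, so no interval was computed. Library sums ran from 496045 to 546113 FPKM. Symbols and positions came from RefSeq (GRCm38.p6): 18326 of 18446 genes matched, and 120 did not. Members and gene lists were chosen with earlier results of these data known.

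Differences were taken on log2(FPKM + 1) without rescaling, with genes of a mean of 1 FPKM or more; a pseudocount of 1 understates the change of low genes. With 1 library per group no test was fitted and 2-fold or more was counted. On simulated data, 98.5% of 200 genes changed 3-fold were recovered and 0 unchanged genes of the 10347 were called. The noise put in was small beside 2-fold, and the changed genes were drawn from more abundant ones. The simulation therefore checks the counting only and gives no rate of false calls in these data. Named were the 2 highest and 2 lowest genes of each family at each time, the 3 largest each way between labels, the 3 most abundant, those next to the limit, Hnrnpll, Hnrnpl, Snrpn, Snrpb, Ptprc, Map3k20 and up to 3 genes each way of the other lists; any other gene named, and the 1.2-fold size between labels, were picked with the values in view. Base composition (GC content), length and shared 50-base words came from GENCODE M21 transcripts (GRCm38) for 10211 genes. Alternatives changed the pseudocount, filter, scaling and size rule; centring on GC content and length in 20 bins, and leaving out members of shared sequence, were added after the data were seen. Python 3.11.15, pandas 2.3.3 and numpy 2.4.6 were used. The values of 1 member are not reported here.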

Additional observations from a re-analysis of the deposited data

Results flagged for a closer look

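A response of opposite direction under the 2 labels was seen in 5 genes, with 1 library per group, and these differences were not tested. Of these, 4 were at 6 h against 0 h, 5.06% of the 79 genes beside 14.6% of all genes, and 1 was at 48 h, 1.27% beside 8.53%. For Lsm5, the response under the deficient label minus that in WT was -0.44 on the log2 scale (-0.13 against 0.31). For Hnrnpdl it was -0.31 (-0.07 against 0.25), for Srsf11 -0.23 (-0.15 against 0.08), and for Hnrnpl 0.24 (0.13 against -0.11). At 48 h, for Hnrnpa0 it was 0.28 (0.22 against -0.06). The opposite direction was lost for Srsf11 with a common sum, where its WT value was -0.01, and for Hnrnpdl with median ratios, where its value under the deficient label was 0.0017. The 0 h libraries enter both these values and the comparison of labels at 0 h.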

How the results depend on the processing

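Pairing the labels by time, or an additive fit of label and time, was not run, and no replicate could be left out since each group was 1 library. Of 261 values recomputed under 10 alternatives (counts of members called and their medians), 238 kept within 1.5-fold (counts) or 0.1 log2 (medians) and 23 moved. The 238 include 27 values that could not move, since a filter at a mean of 5 FPKM removed no member. They also include the counts of members called between labels, which were 0 under every alternative. Medians between labels that lay within 0.1 of 0 changed sign within that tolerance: at 6 h from -0.08 to 0.02 with centring on GC content and length, and at 0 h from 0.0018 to -0.0042 with no filter, -0.04 with median ratios and -0.0009 with centring. The cause was not tested, except that a 1.5-fold rule admits more genes by construction. With a pseudocount of 5 FPKM, 0 members were 2-fold lower at 48 h than at 6 h under either label. With a common sum, the median at 48 h against 0 h was 0.65 in WT and 0.51 under the deficient label, and 0.0468 for 48 h against 6 h under that label. With median ratios, 15 members were higher at 6 h under the deficient label, 0 were lower at 48 h than at 6 h in WT, the median of 48 h against 6 h under the deficient label was 0.0028 (all genes -0.12) and the median between labels at 48 h was -0.20. With a 1.5-fold rule, 36 and 33 members were higher at 6 h in WT and under the deficient label and 2 lower under the latter; at 48 h 48 and 43 were higher and 6 and 5 lower; at 48 h against 6 h 7 and 13 were higher, and 3 lower under the deficient label. With centring on GC content and length, 14 were higher at 6 h and 1 lower at 48 h under the deficient label, where the 48 h median was 0.52, and 0 were lower at 48 h than at 6 h in WT. Under the deposited values and the 3 other scalings, 6 members were 2-fold higher at 6 h, 17 were higher at 48 h and 2 were lower at 48 h under both labels in each case. Without replicates or counts, the spread behind any single value is unknown.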
